A study of Homo sapiens with 12 samples.

Results

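Thymoquinone (TQ), a quinone from the seeds of Nigella sativa, was added to RKO colorectal cancer cells together with 5-fluorouracil (5-FU), and the RNA of these cells was compared with that of cells given 5-FU alone. The comparison rests on 6 of the 12 arrays of the series, 3 labelled as the mixed treatment (TQ+5-FU) and 3 labelled as 5-FU, and it covered every probe set on the array that is not a control. The question was which 5-FU responses became weaker or stronger when TQ was present. 5-FU was given at 10 µg/mL (76.8 µM), and TQ+5-FU cells received the same dose of 5-FU with TQ at 20 µM at the same time. All groups were sampled after 24 h, and 3 control arrays and 3 arrays with TQ alone at 20 µM served as references. Control cells are untreated by their labels but had DMSO by the study's methods, so the solvent's part in any difference from control cannot be told apart from the drug's. RKO is a single established line, and all 4 groups were grown from it. The methods speak of independent biological replicates in general terms, and neither they nor the labels say how the cultures of replicate arrays were kept apart, so every p-value reflects array-to-array spread that may be technical in part.

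As background, 5-FU blocks thymidylate synthase and is built into RNA and DNA. Cells answer this damage by transcribing genes of cell cycle inhibitors, repair factors and death receptors. NF-κB is a family of transcription factors that is held in the cytoplasm by inhibitory IκB proteins, and DNA damage can release it to drive genes for chemokines, adhesion molecules and its own inhibitors. ATF4 is the transcription factor of the integrated stress response and drives genes of amino acid supply. TQ reacts with thiol groups and is widely used as an electrophilic stressor and as an agent that acts on NF-κB.

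The values are log2 signals. A gene stands here for the brightest of the probe sets that name it alone, by mean signal, which gave 11963 genes from 22215 probe sets. A difference is TQ+5-FU minus 5-FU on the log2 scale, from 1 limma fit over all 12 arrays, and the words rose and fell are kept for an adjusted p under 0.05. Array medians lay between 6.33 and 6.55. 5-FU replicate 3 and TQ+5-FU replicate 2 each had the lowest mean correlation with the other arrays of its group, 0.911 and 0.978. The remaining 5-FU arrays were at 0.952 and 0.957, and the remaining TQ+5-FU arrays at 0.984 and 0.990. TQ+5-FU replicate 2 thus stood apart less, and its nearest array was replicate 3 of its own group (r = 0.985). The array nearest to 5-FU replicate 3 was TQ+5-FU replicate 2 (r = 0.960). Both carried higher poly-A spike-in signals, 9.47 and 8.95, than the other arrays of their groups, which lay between 8.22 and 8.42; the highest control array was at 8.97. They are called the displaced arrays here, and results are given with and without them. Of the 10 epithelial markers measured, EPCAM (8.37 to 9.61) and KRT18 (11.9 to 12.8) were bright, whereas 4, including CDH1 and KRT20, lay below the 25th percentile of all signals (4.63) on every array. The summed log2 signal of 9 leukocyte markers was 44.7, 44.5 and 51.2 in 5-FU arrays 1 to 3, and 43.5, 47.5 and 44.6 in TQ+5-FU arrays 1 to 3, against 44.7 to 46.0 in controls. That of 9 fibroblast markers was 43.6, 43.9 and 48.1 with 5-FU and 42.7, 45.6 and 43.6 with TQ+5-FU, against 43.6 to 44.5 in controls. That of the 10 epithelial markers was 60.9, 61.7 and 66.2 with 5-FU and 60.5, 64.5 and 62.1 with TQ+5-FU, against 60.7 to 61.5 in controls. For all 3 marker types, the highest sum in each of the 2 treated groups was thus that of its displaced array. The part of this in the results below was not tested.

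Adding TQ to 5-FU changed 96 genes, of which 52 rose (0.435% of the genes tested) and 44 fell (0.368%). None of the 96 overlapped between the 5-FU and the TQ+5-FU arrays, as was so for 1232 of all 11963 genes (10.3%), and 34 of the 96 changed by at least 2-fold. Without the displaced arrays all 96 passed again in the same direction, and the counts were 439 genes higher (3.67%) and 388 lower (3.24%). The median difference over all genes was -0.065, and -0.016 without the displaced arrays. The call of single genes depended on which arrays were fitted. In a fit to the 6 arrays of 5-FU and TQ+5-FU alone no probe set passed, against 164 in the fit to all 12. In that 6-array fit 778 had an unadjusted p under 0.05. With the same 2 groups but without the displaced arrays, a fit chosen after seeing the data, 177 passed. Leaving out any single array from the fit to all 12 also moved the count, to 627 without 5-FU replicate 3 and to 55 to 89 without any of the others. Of the 61 genes examined singly that passed, 24 passed with each of the 12 arrays left out in turn, among them EBI3, TRAF1, ICAM1, GDF15, ASNS, HSPA6, ID2, KLF4, HEY1 and H3C2.

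5-FU alone raised 517 genes (4.32%) and lowered 355 (2.97%) against control. A 5-FU response was called weakened where TQ+5-FU minus 5-FU also passed with the opposite sign, and strengthened where it passed with the same sign. Of the 872 responses, 73 were weakened (8.37%), 42 of them increases and 31 decreases, and 6 were strengthened (0.688%), all of them increases. The remaining 793 were neither. Both contrasts use the same 5-FU arrays with opposite sign, so chance deviations of these arrays favour the weakened class, and its excess over the strengthened class is a description only. Among the weakened responses, 20 of 42 increases and 4 of 31 decreases still passed in TQ+5-FU against control. Among the responses that were neither, 131 of 469 increases and 76 of 324 decreases did, so not passing there does not set the weakened class apart. A further 17 genes were changed by TQ addition without a 5-FU response, 15 upwards and 2 downwards. With the displaced arrays left out, 609 of 3390 responses were weakened and 40 strengthened, and all 73 and all 6 genes kept their class.

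**Figure D1:**
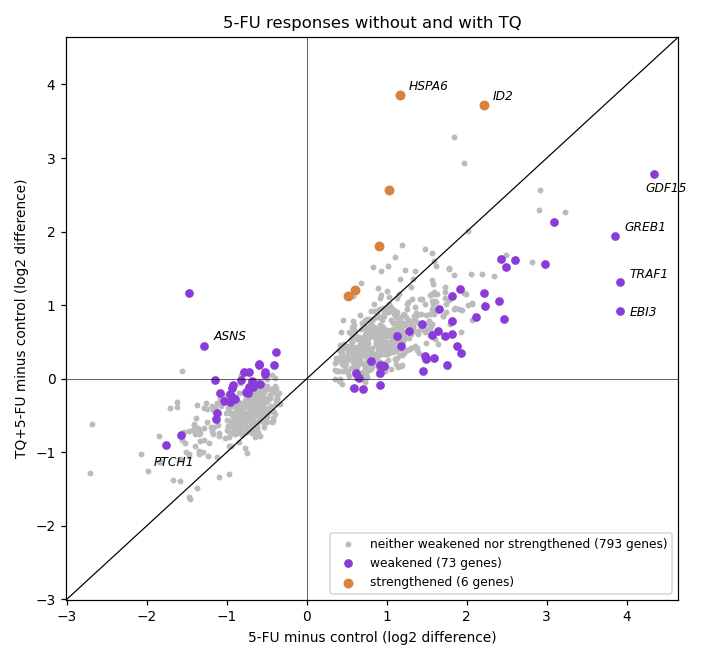
Each point is 1 of the 872 genes with a 5-FU response, placed by its log2 difference from control with 5-FU (horizontal) and with TQ+5-FU (vertical), both read against the same 3 control arrays; the diagonal marks equal responses. The 73 weakened responses (purple) lie between the diagonal and the horizontal zero line or just beyond it, apart from H3C7 well above that line at upper left, and the 6 strengthened ones (orange) lie above the diagonal.

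The 2 largest falls on adding TQ were in the NF-κB targets EBI3 and TRAF1. EBI3, a subunit of the cytokines IL-27 and IL-35, read 5.05, 5.31 and 5.16 in controls, 8.80, 8.74 and 9.73 with 5-FU and 5.81, 6.34 and 6.13 with TQ+5-FU, a difference of -2.997. All 3 TQ+5-FU arrays thus sat nearer to control than to 5-FU, at a level 7.98-fold below 5-FU (95% interval of the log2 difference -3.56 to -2.43, adjusted p = 0.000891). TRAF1, an adaptor of TNF receptors, was at 5.99, 5.63 and 6.04 in controls, 9.47, 9.44 and 10.50 with 5-FU and 6.91, 7.38 and 7.30 with TQ+5-FU, a difference of -2.61 (SE 0.27, adjusted p = 0.0035). ICAM1, the leukocyte adhesion molecule, was at 9.04, 9.08 and 9.25 in controls, 10.60, 10.68 and 11.37 with 5-FU and 9.09, 9.56 and 9.30 with TQ+5-FU, and both of its other probe sets passed in the same direction. Its difference was -1.57 (SE 0.20, adjusted p = 0.0064), and against control TQ+5-FU then differed by 0.19, which did not pass.

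Among the chemokines, CXCL2 gave 5.37, 5.56 and 5.57 in controls, 6.77, 6.97 and 7.20 with 5-FU and 5.64, 5.99 and 5.79 with TQ+5-FU, a difference of -1.17 (SE 0.14, adjusted p = 0.00623). CXCL1 was dim in controls and with TQ+5-FU (3.92, 3.91 and 3.93, and 3.93, 4.22 and 3.93) and reached 4.62, 5.81 and 5.68 with 5-FU, a difference of -1.35 (SE 0.26, adjusted p = 0.05) that only just passed. CD83, a surface marker of activated immune cells, had the tightest 5-FU arrays of the group at 10.53, 10.44 and 10.46, and all TQ+5-FU arrays lay lower at 9.09, 9.50 and 9.40, a difference of -1.15 (SE 0.12, adjusted p = 0.00355). TNFAIP3, the ubiquitin-editing enzyme A20 that ends NF-κB signalling, went from 8.43, 8.35 and 8.22 with 5-FU to 7.76, 7.52 and 7.63 with TQ+5-FU, which was still above the controls at 6.45, 6.34 and 6.49. CXCL8 had a difference of -1.30 (adjusted p = 0.153) and NFKB2 of -1.29 (0.0813), and NFKBIA, which encodes IκBα, of -0.68 (0.177); these did not pass with all arrays but did without the displaced ones, at -1.68, -0.998 and -0.62.

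Of the 24 NF-κB targets measured, 7 fell and none rose with TQ added, 22 had a negative difference, and the median was -0.71. 5-FU alone had raised 16 of the 24 (median 1.43), and TQ alone left their median at -0.09. Leaving out the displaced arrays, 16 fell and the median was -0.68. For this and every later list, the shares of all genes were 0.435% higher and 0.368% lower with all arrays. Without the displaced arrays they were 3.67% and 3.24%. The medians over all genes were -0.065 and -0.016, and the share of all genes with a given sign was not counted.

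Promoters of 3 members that fell are shown for their matches to the NF-κB response element. The NF-κB consensus was searched on both strands in the 250 bases before each start, using RefSeq promoters on GRCh38.p14, which were matched for 9563 of the genes tested. It was found for 16 of 21 NF-κB targets (76.2%) and for 5 of the 7 that fell, against 15.6% of all genes with a promoter. The list was drawn up from genes known to respond to NF-κB, so the share describes the list. The last 150 bases before the start of 3 of the 7 read as follows, 5′ to 3′ on the gene's strand, with matches in capitals. CXCL1 lies at chr4:73869243-73869392 on the plus strand, CXCL2 at chr4:74099196-74099345 on the minus strand and TNFAIP3 at chr6:137867109-137867258 on the plus strand.
CXCL1: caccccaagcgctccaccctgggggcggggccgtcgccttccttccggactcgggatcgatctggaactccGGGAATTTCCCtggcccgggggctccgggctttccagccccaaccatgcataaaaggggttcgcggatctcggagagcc
CXCL2: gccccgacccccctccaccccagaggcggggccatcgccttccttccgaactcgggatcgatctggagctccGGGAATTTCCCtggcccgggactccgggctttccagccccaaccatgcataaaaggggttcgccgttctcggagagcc
TNFAIP3: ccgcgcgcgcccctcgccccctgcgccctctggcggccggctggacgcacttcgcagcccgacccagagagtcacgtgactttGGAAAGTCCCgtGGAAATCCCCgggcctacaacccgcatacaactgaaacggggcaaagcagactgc
In CXCL1 and CXCL2 the consensus matched on both strands over the same stretch, which starts 79 and 78 bases before the start of the gene. In TNFAIP3 it matched at 2 separate places, the first starting 67 bases before the start.

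Among genes of the damage response, GDF15 and DDB2 had been raised by 5-FU, and part of that rise was lost with TQ. GDF15, a stress cytokine, stood at 7.59, 7.66 and 7.86 in controls, 11.84, 11.90 and 12.40 with 5-FU and 10.23, 10.65 and 10.58 with TQ+5-FU, a difference of -1.56 (SE 0.18, adjusted p = 0.00369). The fall was 2.95-fold, and the signal with TQ+5-FU still exceeded control by 2.78. DDB2, the damage sensor of nucleotide excision repair, went from 11.33, 11.30 and 11.56 with 5-FU to 10.31, 10.51 and 10.40 with TQ+5-FU, against 8.78, 8.72 and 8.89 in controls. Its difference was -0.99 (SE 0.11, adjusted p = 0.00369), and with TQ alone the difference from control, -0.45, did not pass.

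CDKN1A and GADD45A did not follow. CDKN1A, the gene of the cell cycle inhibitor p21, gave 11.12, 11.24 and 11.69 with 5-FU and 11.26, 11.45 and 11.35 with TQ+5-FU, a difference of -0.002 with a 95% interval of -0.34 to 0.34. GADD45A, a growth arrest and stress protein, rose from 12.14, 12.14 and 11.92 to 12.72, 12.70 and 12.63, a difference of 0.62 (SE 0.10, adjusted p = 0.0241). Without the displaced arrays PLK3 (-1.10), ZMAT3 (-0.78) and the death receptor FAS (-0.69, adjusted p = 0.0397) also fell. FAS was far lower on 5-FU replicate 3 than on the other arrays of its group: its 5-FU arrays read 11.34, 11.13 and 7.97 and its TQ+5-FU arrays 10.81, 9.18 and 10.29, and with all arrays the difference was -0.05 (adjusted p = 0.976).

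**Figure D2:**
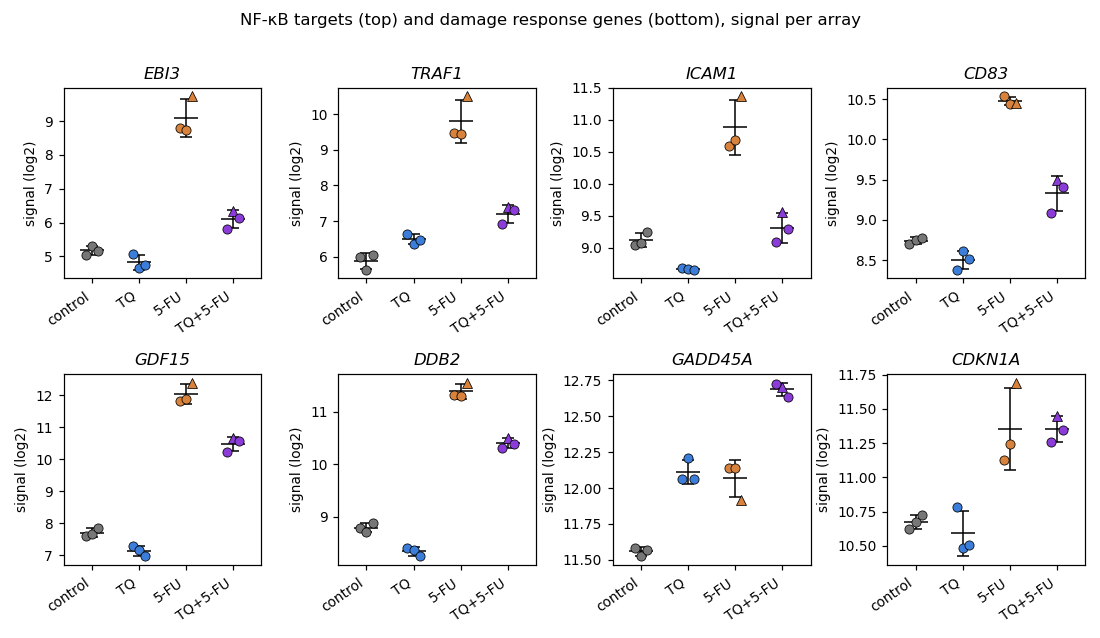
Signal (log2) of 4 NF-κB targets (top row) and 4 damage response genes (bottom row) on every array, by group; bars are the mean ± SD of 3 arrays, and triangles mark the displaced arrays. In the top row and for GDF15 and DDB2 the 3 TQ+5-FU arrays lie below all 3 5-FU arrays, with EBI3 at 9.09 ± 0.56 with 5-FU and 6.09 ± 0.26 with TQ+5-FU, whereas for GADD45A they lie above and for CDKN1A within the range of the 5-FU arrays.

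Further 5-FU inductions outside the NF-κB list also fell with TQ. GREB1, known as an oestrogen receptor cofactor, went from 3.69, 3.40 and 3.32 in controls to 7.44, 7.12 and 7.41 with 5-FU and 5.47, 5.58 and 5.19 with TQ+5-FU, a difference of -1.91 (SE 0.20, adjusted p = 0.00355). This probe set was the only one of 3 for GREB1 to pass, and another had the opposite sign. ELAPOR1, a membrane protein linked to autophagy, went from 6.28, 6.73 and 6.95 to 4.79, 5.46 and 5.44 (-1.42), and TMEM40 from 5.74, 6.03 and 6.34 to 4.35, 4.86 and 4.57 (-1.44). TAGLN, the actin-binding protein transgelin, went from 9.73, 9.83 and 10.61 to 8.22, 8.83 and 8.38, near its control values of 8.04, 8.04 and 8.31. The same return towards control held for APOBEC3C, a cytidine deaminase, at 9.67, 9.86 and 10.48 with 5-FU, 8.45, 8.85 and 8.78 with TQ+5-FU and 8.44, 8.35 and 8.45 in controls. TSGA10 (-1.66), KANK3 (-1.35) and the ubiquitin ligase RNF19B (-0.97) fell as well.

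DGKA, diacylglycerol kinase alpha, had closely spaced arrays, 10.19, 10.36 and 10.13 with 5-FU against 8.92, 8.91 and 8.998 with TQ+5-FU, a difference of -1.28 (SE 0.11, adjusted p = 0.000891) that its other probe set shared. The signal transducer STAT3 went from 10.05, 10.21 and 10.18 to 9.31, 9.47 and 9.50 and the hyaluronan receptor CD44 from 11.04, 11.02 and 11.26 to 10.45, 10.61 and 10.54, differences of -0.72 and -0.57. CD44 was less even across its 8 probe sets: 2 others passed in the same direction and 1 other had the opposite sign. OAS3, an interferon-induced sensor of double-stranded RNA, fell by 1.01 on the log2 scale, from 9.80, 9.84 and 10.14 to 8.89, 8.97 and 8.90, beside control values of 8.96, 9.01 and 9.06. Of 23 genes in the list for interferon response and antigen presentation, of which OAS3 is not a member, none passed, 20 had a negative difference and the median was -0.27. Of 9 leukocyte markers 8 were negative as well (median -0.21), and of 9 fibroblast markers 7 (-0.14). The interferon list had medians of 0.39, 0.39 and 0.97 above control on 5-FU arrays 1 to 3, highest on the displaced array. The part of that array in this shift was not tested. Without the displaced arrays 3 members of the interferon list fell, among them TAP1 (-0.74), which loads peptides for antigen presentation, and ISG15 (-0.65).

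**Figure D3:**
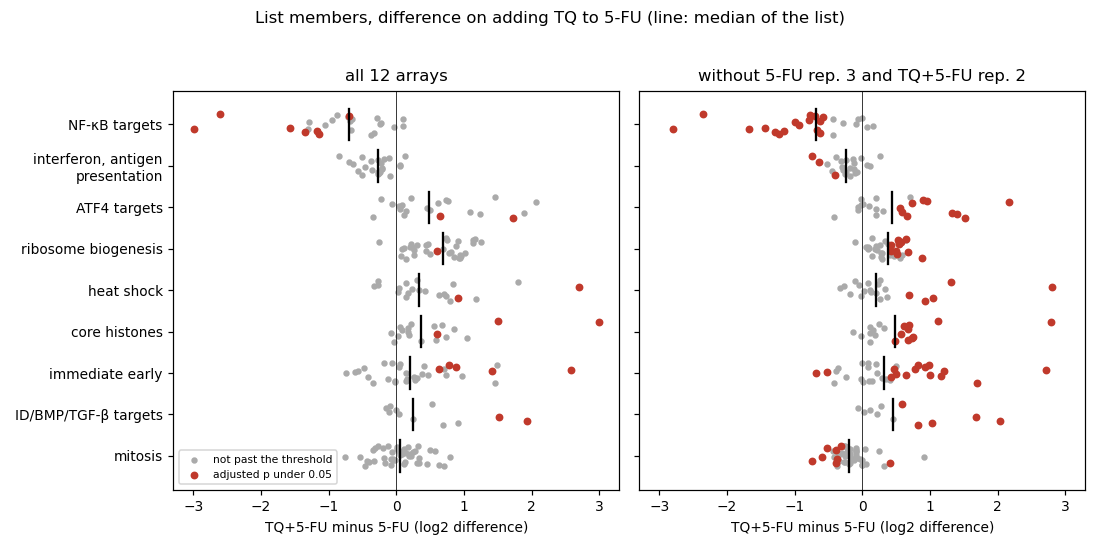
Difference TQ+5-FU minus 5-FU (log2) of every measured member of 9 gene lists, with all 12 arrays (left) and without the displaced arrays (right); red points have an adjusted p under 0.05 and black lines are list medians. Most NF-κB targets lie to the left of zero in both panels (medians -0.71, then -0.68), whereas the median of mitosis genes changes sign (0.06, then -0.20).

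5-FU lowered ATF4 and several genes of amino acid supply, and these decreases became smaller with TQ. ATF4 itself read 13.21, 13.15 and 13.19 in controls, 12.02, 12.005 and 12.18 with 5-FU and 12.68, 12.80 and 12.66 with TQ+5-FU, a difference of 0.64 (SE 0.10, adjusted p = 0.0183). TQ alone also lowered ATF4, to 12.67, 12.53 and 12.53, and the ranges of TQ+5-FU and TQ overlap. ASNS, asparagine synthetase, read 11.48, 11.30 and 11.17 in controls, 10.25, 10.34 and 9.53 with 5-FU and 11.88, 11.68 and 11.74 with TQ+5-FU, a rise of 3.31-fold (1.73 (SE 0.19, adjusted p = 0.00361)). With TQ+5-FU the 3 arrays lay above all controls, although this difference from control did not pass (0.45, adjusted p = 0.403).

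The aminoacyl-tRNA synthetases AARS1, CARS1 and LARS2, chosen after their values were seen, were weakened decreases as well. The 5-FU decreases of the synthetases NARS2, YARS1 and WARS1 were neither weakened nor strengthened, with differences of 1.01, 0.50 and 0.22. AARS1 went from 10.12, 10.26 and 10.09 with 5-FU to 10.74, 10.79 and 10.80 with TQ+5-FU, against 11.10, 11.03 and 11.04 in controls, and CARS1 went from 10.99, 11.10 and 10.998 to 11.51, 11.61 and 11.51, against 11.66, 11.61 and 11.58. CEBPG, a partner of ATF4 on DNA, was back among its controls (10.23, 10.09 and 10.10) at 10.07, 10.28 and 9.97, after 9.44, 9.50 and 9.40 with 5-FU, a difference of 0.66 (SE 0.11, adjusted p = 0.0247). Of 22 ATF4 targets measured, 2 rose and none fell, 19 had a positive difference and the median was 0.47. When the displaced arrays were left out, 10 rose, with a median of 0.43, led by SLC7A11 (2.17), the cystine transporter, and including CTH (1.32) and CHAC1 (1.40), which act in cysteine and glutathione metabolism. With all arrays these had differences of 2.06, 1.89 and 1.24, with adjusted p of 0.153, 0.0745 and 0.0888.

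The promoters of ASNS (chr7:97872409-97872558, minus strand) and CEBPG (chr19:33373963-33374112, plus strand) each held a match to the C/EBP-ATF element, searched as TGATGNAA on both strands. It was present for 3 of 19 ATF4 targets with a promoter (15.8%), against 3.01% of all genes. The list was drawn up from known ATF4 targets, so the share describes the list, and CEBPG is not a member of it. The last 150 bases before each start are given with the match in capitals, which begins 68 bases before the start in ASNS and 42 in CEBPG.
ASNS: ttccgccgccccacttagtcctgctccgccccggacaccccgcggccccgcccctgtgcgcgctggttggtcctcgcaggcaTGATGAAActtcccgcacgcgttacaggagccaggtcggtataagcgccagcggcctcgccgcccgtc
CEBPG: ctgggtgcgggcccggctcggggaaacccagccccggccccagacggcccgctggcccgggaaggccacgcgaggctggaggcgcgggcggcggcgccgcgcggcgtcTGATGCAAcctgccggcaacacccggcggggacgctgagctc

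Genes of ribosome making shifted in the same direction in nearly all cases, but few passed. Of 33 measured, 32 had a positive difference, with a median of 0.69 that fell to 0.38 without the displaced arrays. 5-FU alone had lowered 10 of them. NOP16, a nucleolar protein, went from 11.10, 11.14 and 10.94 with 5-FU to 11.57, 11.75 and 11.67 with TQ+5-FU, near its controls at 11.76, 11.73 and 11.76, and it was the single member that passed (0.60 (SE 0.10, adjusted p = 0.0249)). Of its 3 other probe sets 1 passed in the same direction and 2 had the opposite sign. In the absence of the displaced arrays 11 rose, for example UTP14A at 0.58, which had 1.25 with all arrays (adjusted p = 0.478). MYC, which drives these genes among many others, went from 11.66, 11.73 and 12.11 with 5-FU to 12.45, 12.47 and 12.49 with TQ+5-FU, below its controls at 12.82, 12.76 and 12.81, and its difference of 0.64 had an adjusted p of 0.0488. PDCD11, an rRNA processing factor, rose by 0.69 and the helicase RUVBL1 by 0.60.

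Among the other weakened decreases, E2F5, a transcription factor of the cell cycle, went from 8.04, 8.18 and 7.94 to 8.91, 8.92 and 8.99, against 9.13, 9.11 and 9.18 in controls (0.89 (SE 0.10, adjusted p = 0.00466)). BICRAL, a subunit of a chromatin remodelling complex, went from 5.80, 5.93 and 5.27 to 6.88, 6.499 and 6.99, a difference of 1.12. PTCH1, the hedgehog receptor, and SCD, the fatty acid desaturase, recovered in part: PTCH1 read 6.82, 6.76 and 7.04 with 5-FU and 7.78, 7.61 and 7.80 with TQ+5-FU, below its controls at 8.61, 8.59 and 8.69. SCD read 9.95, 9.90 and 9.42 and 10.68, 10.42 and 10.60, against 11.33, 11.34 and 11.33. Both other probe sets of PTCH1 had a difference of the opposite sign, so its direction depends on the probe set. Averaged over all its probe sets, SCD differed by 0.31, which did not pass (limma, adjusted p = 0.552). TWNK, the mitochondrial DNA helicase, went from 8.42, 8.57 and 8.25 to 8.95, 9.05 and 9.01, against 9.59, 9.53 and 9.55 in controls. SPRY2 (0.77), a feedback inhibitor of receptor tyrosine kinases, SOX4 (0.80) and BHLHE41 (0.84), which are transcription factors, were also weakened decreases.

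**Figure D4:**
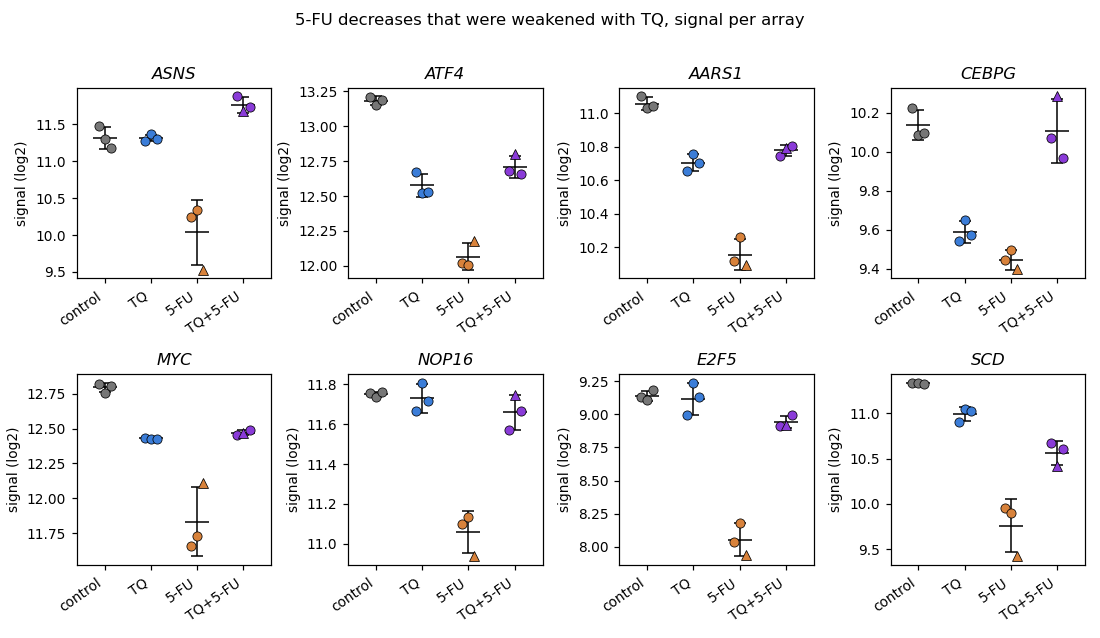
Signal (log2) of 8 genes whose 5-FU decrease was weakened with TQ, on every array, by group; bars are the mean ± SD of 3 arrays, and triangles mark the displaced arrays. In every panel the TQ+5-FU arrays lie above the 5-FU arrays; ASNS went from 10.04 ± 0.44 to 11.76 ± 0.1, and ATF4, AARS1, MYC, E2F5 and SCD stayed below all their controls.

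All 6 strengthened responses were 5-FU inductions that rose further. HSPA6, an inducible chaperone of the HSP70 family, read 5.17, 5.33 and 5.16 in controls, 5.77, 6.38 and 7.005 with 5-FU and 8.97, 9.49 and 8.78 with TQ+5-FU, a rise over 5-FU of 6.49-fold (2.70 (SE 0.28, adjusted p = 0.0035)). ID2, an inhibitor of basic helix-loop-helix factors, read 6.34, 6.28 and 6.55 in controls, 8.34, 8.45 and 9.02 with 5-FU and 10.25, 10.19 and 9.90 with TQ+5-FU, a difference of 1.51 (SE 0.18, adjusted p = 0.00456). GADD45B, a stress-induced signalling protein, read 9.29, 9.44 and 10.10 with 5-FU and 11.09, 11.45 and 10.93 with TQ+5-FU, against 8.52, 8.50 and 8.75 in controls. TQ alone had raised these 3 genes too, to 8.29, 8.23 and 7.98 for HSPA6, 9.10, 9.20 and 9.12 for ID2 and 10.41, 10.28 and 10.16 for GADD45B, and every TQ+5-FU array lay above every array with either drug alone. CLU, the secreted chaperone clusterin, rose from 10.38, 10.51 and 11.03 to 11.47, 11.67 and 11.50 (0.91 (SE 0.16, adjusted p = 0.0329)). GADD45A, given above, and the histone gene H2BC12 (0.60, adjusted p = 0.0498) complete the class.

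HSPA6 and CLU were the only 2 of 21 heat shock genes that passed, with 18 differences positive and a median of 0.33. Without the displaced arrays 5 rose, with a median of 0.19: HSPH1 (1.31), BAG3 (0.93) and DNAJB1 (0.69) joined them. CHORDC1 shows the reverse dependence, with 1.17 when all arrays were kept and 0.26 without the displaced ones. The promoter of HSPA6 (chr1:161524390-161524539, plus strand) is shown for its match to the heat shock element, searched on both strands as 3 units, alternately GAA and TTC, set 2 bases apart. The element was found for 6 of 17 heat shock genes (35.3%), against 0.512% of all genes, and in HSPA6 it begins 74 bases before the start. The list was drawn up from known heat shock genes, so the share describes the list.
HSPA6: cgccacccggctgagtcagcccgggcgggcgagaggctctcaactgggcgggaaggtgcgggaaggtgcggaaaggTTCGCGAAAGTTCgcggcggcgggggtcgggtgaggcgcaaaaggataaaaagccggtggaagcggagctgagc

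Of the 12 largest rises 7 were in genes without a called 5-FU response. KLF4, a zinc-finger transcription factor, read 8.09, 8.14 and 8.02 in controls, 7.11, 7.15 and 7.93 with 5-FU and 9.92, 10.26 and 9.76 with TQ+5-FU, a rise of 6-fold (2.58 (SE 0.21, adjusted p = 0.000782)). HEY1, a target of Notch and BMP signalling, read 7.15, 7.07 and 7.20 in controls, 6.77, 6.76 and 7.06 with 5-FU and 8.83, 8.80 and 8.76 with TQ+5-FU, and it had the smallest adjusted p of the genes named, 7.37e-05, at a difference of 1.94. SNAI1, a repressor known from epithelial-mesenchymal transition, read 6.30, 6.58 and 7.38 with 5-FU and 8.43, 8.91 and 8.41 with TQ+5-FU, against 5.86, 6.13 and 6.39 in controls (1.83 (SE 0.26, adjusted p = 0.0126)). All 3 TQ+5-FU arrays of each gene lay above every control and every 5-FU array. TQ alone put HEY1 at 8.30, 8.31 and 8.12 and SNAI1 at 7.88, 7.72 and 7.81, differences from control of 1.10 and 1.68 that passed, and KLF4 at 9.09, 9.15 and 9.06, which did not (1.02, adjusted p = 0.0841).

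KLF10, a TGF-β-induced relative of KLF4, rose from 9.83, 9.54 and 8.69 to 11.01, 10.52 and 10.77 (1.41), NR4A2, an orphan nuclear receptor, from 6.22, 5.94 and 6.06 to 7.02, 6.84 and 6.99 (0.88), and MYCT1 from 4.30, 4.25 and 4.49 to 5.77, 6.02 and 5.68 (1.48). The repressor NFIL3 rose by 0.86 and GOT1, an aspartate aminotransferase, by 0.52. Of 32 immediate early genes, 5 rose (KLF4, KLF10, NR4A2, SPRY2 and MYC) and none fell, with a median of 0.21. Without the displaced arrays 13 rose and 2 fell. Of 11 targets of BMP and TGF-β signalling ID2 and HEY1 rose, and without the displaced arrays 5 rose, including HES1 (1.03). FOS, the lead gene of the immediate early list, had 8.79, 8.87 and 9.68 with 5-FU and 10.08, 10.26 and 9.91 with TQ+5-FU, a difference of 0.97 that passed only without the displaced arrays (adjusted p = 0.0872 and 0.000608).

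**Figure D5:**
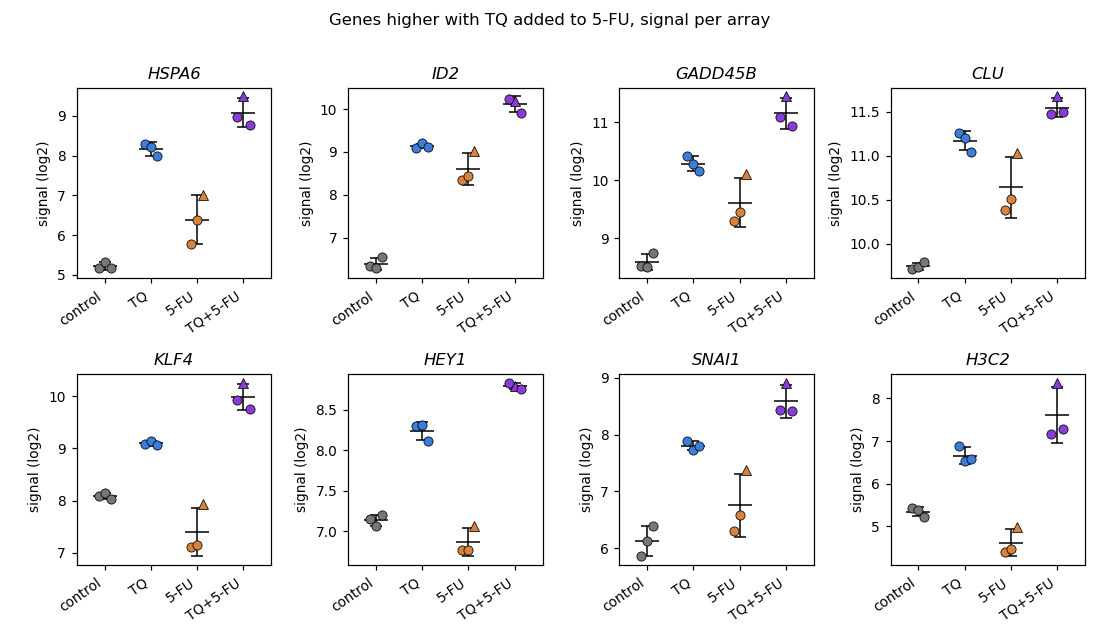
Signal (log2) of 8 genes that were higher with TQ+5-FU than with 5-FU, on every array, by group; bars are the mean ± SD of 3 arrays, and triangles mark the displaced arrays. The top row holds 5-FU inductions that were strengthened and the bottom row genes without a 5-FU response; in each panel all TQ+5-FU arrays lie above all 5-FU arrays and above all arrays with TQ alone, for example KLF4 at 9.98 ± 0.25 with TQ+5-FU and 9.10 ± 0.047 with TQ.

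The largest rise of all was in a histone gene. H3C2 read 5.42, 5.39 and 5.23 in controls, 4.41, 4.46 and 4.98 with 5-FU and 7.17, 8.37 and 7.29 with TQ+5-FU, a difference of 2.99 (SE 0.29, adjusted p = 0.00231). Its values on 5-FU arrays 1 and 2 lay below the 25th percentile of all signals (4.63), so the size of this rise is read from dim signal. H3C7 read 6.80, 6.58 and 6.96, 5.27, 4.90 and 5.73 and 7.56, 8.76 and 7.51 in the same order, and H4C8 5.84, 5.81 and 5.88, 6.24, 6.38 and 5.36 and 7.46, 7.62 and 7.40. The highest TQ+5-FU value of each was that of the displaced array, and without the displaced arrays the differences were 2.79, 2.45 and 1.11. Core histone genes are near-identical copies, so which copy a probe set reads is uncertain. Of 19 measured, 3 rose and none fell, with a median of 0.37, and without the displaced arrays 10 rose, with a median of 0.49. H3C7, which is outside that list, was the weakened decrease that overshot control most (1.16, adjusted p = 0.0985).

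PLAU, the urokinase plasminogen activator, and SDHA, a subunit of mitochondrial complex II, were the 2 genes that fell without a 5-FU response. PLAU went from 9.38, 9.60 and 9.94 with 5-FU to 8.50, 8.97 and 8.72 with TQ+5-FU, below its controls at 9.49, 9.50 and 9.54, and TQ alone lowered it further, to 8.22, 8.34 and 8.22. Its difference was -0.90 (SE 0.16, adjusted p = 0.0316), and its other probe set passed in the same direction. SDHA went from 10.96, 11.01 and 10.85 to 10.34, 10.35 and 10.48 (-0.55).

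In several programmes no member passed. These were ER stress (18 measured, median 0.15), NRF2 targets (24, 0.02), mitosis (46, 0.06), DNA replication (39, -0.05), fluoropyrimidine metabolism (18, -0.0025), death receptor signalling (20, -0.11), the BCL2 family (17, -0.07), glycolysis and hypoxia (19, 0.12), autophagy and lysosome (30, -0.07), metallothioneins (9, 0.06) and the proteasome (28, 0.16). TYMS, the thymidylate synthase that 5-FU blocks, differed by -0.01 with a 95% interval of -0.20 to 0.18, and HMOX1, the heme oxygenase of the NRF2 response, by 0.34 (-0.14 to 0.81). Once the displaced arrays were left out, members of most of these lists passed, in a fit where 3.67% of all genes were higher and 3.24% lower. In mitosis 7 fell and 1 rose (median -0.20), in DNA replication 6 fell (-0.22) and in ER stress 4 fell (0.02). In death receptor signalling FAS, CASP10, CFLAR and TNFRSF10B fell and TNFRSF21 rose (-0.16), and in the BCL2 family BCL2A1, BIK and PMAIP1 fell and BCL2L11 and HRK rose (-0.17). Autophagy and lysosome had 3 falls, glycolysis and hypoxia 2 rises and 2 falls, NRF2 targets 2 rises and 1 fall and fluoropyrimidine metabolism 1 of each, whereas no metallothionein or proteasome gene passed in that fit either.

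Of 24 genes of urokinase, matrix and epithelial-mesenchymal transition, SNAI1 rose and PLAU fell (median -0.12), and without the displaced arrays 2 rose and 3 fell. SCD was the 1 of 16 genes of cholesterol and fatty acid synthesis to pass (median 0.05), and DHCR7 joined it without the displaced arrays. ISL1, a LIM homeobox factor (0.83, adjusted p = 0.0249), and the histone gene H2BC12L (0.80, adjusted p = 0.0137) rose as well. The first genes of their lists that are not described above did not pass with all arrays. Their differences ran from -0.31 for COL1A1 to 1.05 for H2AC6, with HSPA5 at 0.45, PLK1 at 0.04, MCM2 at -0.05, BCL2 at -0.11, NCL at 0.78, VEGFA at 0.45, SQSTM1 at 0.14, MT2A at 0.05, PSMD1 at 0.71, KRT8 at 0.55, PTPRC at -0.15 and DDIT4 at 0.14.

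Of the 9 genes followed up by the study that were measured here, ID2 alone passed. BIRC3, the other of the study's 10, is not among the genes read here, which need a probe set that names them alone. CYLD, a deubiquitinase of NF-κB signalling, read 8.87, 8.79 and 5.86 with 5-FU and 8.63, 7.34 and 8.21 with TQ+5-FU, so that the displaced array was the lowest of each group by far. The interval of its difference ran from -1.27 to 1.71, and the difference was 0.22 with all arrays and -0.41 without the displaced ones. The same 2 arrays were the lowest of their groups for the kinase STK3 (9.02, 8.80 and 5.87 with 5-FU, 9.08, 7.23 and 8.54 with TQ+5-FU), for BIRC2 (0.28, then -0.15), for EIF2AK3 (0.34, then -0.002), for FZD6 (0.77, then -0.03) and for MAP3K8 (0.90, then 0.72). By RT-qPCR the study reports EIF2AK3 as lower with the combination than with either drug alone.

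Whether adding TQ had a different effect in 5-FU cells than on its own was tested as the interaction, TQ+5-FU minus 5-FU minus TQ plus control. It passed for 20 genes (0.167% of those tested), 13 of them among the 96. These calls are fragile: under 12 of 19 other settings, among them 10 of the 12 that leave out a single array, no probe set passed. The NF-κB targets EBI3, TRAF1 and TNFAIP3 differed in 5-FU cells by -2.997, -2.61 and -0.70, whereas TQ alone gave -0.35, 0.60 and 0.50, none of which passed. ATF4, AARS1, CARS1 and CEBPG rose in 5-FU cells by 0.64, 0.62, 0.52 and 0.66, whereas TQ alone gave -0.61, -0.35, -0.46 and -0.55. For HSPA6, GADD45B and SNAI1 the interaction had an adjusted p of 0.9999, and the change with TQ was 2.70, 1.54 and 1.83 in 5-FU cells beside 2.95, 1.69 and 1.68 without 5-FU.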

How the data were processed

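RNA of RKO cells was measured on Affymetrix U133A 2.0 arrays, 3 per group. The deposited values are log2 signals that the authors made with RMA, and they were used without further scaling; the methods name GeneSpring and the labels Affymetrix Expression Console. Of 22277 probe sets, 62 controls were left out. 19064 probe sets name a single gene, 1043 several and 2108 none.

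A linear model with 1 mean for each group was fitted to all 12 arrays with limma (version 3.58.1, R 4.3.3), with default empirical Bayes moderation, two-sided tests and Benjamini-Hochberg adjustment over 22215 probe sets, with a threshold of 0.05. The procedure was run on simulated arrays whose noise was independent between arrays and probe sets. In the data 5-FU replicate 3 and TQ+5-FU replicate 2 deviated from their group means together (r = 0.883). The simulation lacked this, so it does not show how such a deviation affects the calls. The number of arrays limits the precision: an exact two-sided test of 3 arrays against 3 cannot give a p below 0.1, and none was used to call genes. The rule for named genes took the 12 largest rises and falls whose arrays do not overlap, the 8 largest weakened or strengthened responses each way, up to 4 passing members and the first gene of each of 26 lists, and the genes the study followed up. It gave 66 genes; 36 more, including CXCL2, CD83, TNFAIP3, DGKA, AARS1, CEBPG and MYC, were chosen after their values were seen. The results of 1 list and of 1 of these genes are not reported here. The members and lists were chosen with earlier results of these data known. Of the named genes that passed, 25 have other probe sets; in 14 another passed in the same direction, and in 4 another had the opposite sign. Same-numbered arrays of 5-FU and TQ+5-FU deviated from their group means with correlations of 0.859, -0.836 and -0.613, so replicate numbers were not used as pairs. The alternatives are listed with their effect in the closing section.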

Additional observations from a re-analysis of the deposited data

Results flagged for a closer look

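For 14 of the named genes the change on adding TQ in 5-FU cells differed from the change with TQ alone, by the interaction test of limma with Benjamini-Hochberg adjustment. The interaction, on the log2 scale, was -2.65 for EBI3, -3.20 for TRAF1, -2.28 for GREB1, -1.21 for TNFAIP3 and -1.07 for DGKA, which were lower with TQ in 5-FU cells. It was 1.25 for ATF4, 0.98 for AARS1, 1.21 for CEBPG, 0.97 for CARS1, 1.46 for PTCH1, 0.97 for TWNK, 1.08 for SOX4, 1.02 for BHLHE41 and 2.88 for CHAC1, which had a positive change with TQ in 5-FU cells, although that of CHAC1 did not pass by itself. Adjusted p ran from 0.0306 (TRAF1) to 0.0498 (TWNK). The calls moved with the setting: of 28 probe sets that passed the interaction with all arrays, none passed under 12 of 19 other settings, among them 10 of the 12 that leave out a single array, whereas 1353 had an unadjusted p under 0.05. Without 5-FU replicate 3, 623 passed, and without both displaced arrays 2196 passed, the 14 genes included.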

How the results depend on the processing

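The count of probe sets that differ between TQ+5-FU and 5-FU was 164 (85 higher, 79 lower), with 113 weakened and 10 strengthened 5-FU responses. Without both 5-FU replicate 3 and TQ+5-FU replicate 2, 1362 passed, with 981 weakened and 62 strengthened, and all 164 were among them. Leaving out single arrays in turn gave 55 to 627 probe sets, 33 to 431 weakened and 4 to 26 strengthened; the highest counts came without 5-FU replicate 3, and each of the other 11 omissions gave 55 to 89. Array weights gave 4512, 2874 and 218. ANOVA with Tukey's HSD, run here after the description in the methods, gave 773, 568 and 49. The study itself reports a larger count for this contrast by that test. Median centring gave 68, 43 and 5. The replicate block gave 68, 43 and 5 as well, and the numbers do not pair the arrays. Student's t-test with Benjamini-Hochberg adjustment gave 0, with 1026 probe sets at an unadjusted p under 0.05. The methods describe that test only for treated groups against control. A fit to the 6 arrays of 5-FU and TQ+5-FU alone also gave 0, with 778 at an unadjusted p under 0.05. Fitted to those groups without the displaced arrays, which was chosen after seeing the data, 177 passed, 90 of them among the 164. At least 2-fold changes numbered 60, with 34 weakened, and 5-FU responses of at least 2-fold gave 62 weakened and 6 strengthened. Quantile normalization, leaving out the 30% dimmest probe sets and another variance prior gave 135 to 165. When each gene was averaged over its probe sets, 9 of the 61 named genes that passed no longer did. No named gene that passed changed sign in any setting, but 497 of their 1461 values under other settings no longer passed. CYLD, which did not pass, changed sign and passed with array weights (-0.58). The causes were not tested. A difference within the spread of 3 arrays is not detectable here.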
